A study of Mus musculus with 6 samples.

Results

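Potassium channels and voltage-gated calcium channels were compared between control and Yap1,Wwtr1 iPCKO lung pericytes at P8. The members are the protein-coding genes whose GENCODE M21 symbol begins with Kcna to Kcnv or with Cacn, apart from Kcnj8. There are 119 such genes among the 21603 genes of the processed files, 93 of them for potassium channels and 26 for calcium channels. Of the 119, 39 (32.8%) reached 1 RPKM in at least 3 samples and were tested, compared with 12034 genes (55.7%) of all genes. RPKM, reads per kilobase of exon and per M reads of the library, is a level per length, so values of different genes can be set side by side within the limits of the annotated length.

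RNA came from the lungs of 3 control and 3 iPCKO mice of strain C57BL/6 at postnatal day 8, with n = 3 per group throughout. The labels give the genotypes as Yap1+/-;Wwtr1+/- for controls and Yap1-/-;Wwtr1-/- for iPCKO mice, and the study's methods describe floxed alleles of both genes that Cre recombines. Mice of both groups carried Pdgfrb(BAC)-CreERT2, a tamoxifen-dependent Cre driven by Pdgfrb regulatory sequence on a bacterial artificial chromosome, together with the Ribotag allele of Rpl22. Tamoxifen was given from P0 to P2. After recombination the Ribotag allele places a hemagglutinin (HA) tag on a ribosomal protein, so that anti-HA beads recover RNA on ribosomes of the recombined cells out of whole perfused lung. The Cre follows Pdgfrb, which vascular smooth muscle cells and some fibroblasts also express. Under a similar tamoxifen schedule, the study reports no reporter label in PDGFRα+ fibroblasts, bronchial smooth muscle cells or myofibroblasts. By flow cytometry at a later age, it found no significant change in the abundance of PDGFRβ+ cells. The controls lack 1 copy of each gene in the recombined cells, so the groups differ in the loss of the remaining copies. In such bulk RNA, a change in the number of cells of a type and a change in RNA per cell cannot be told apart.

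Pericytes are contractile mural cells of small vessels. Open potassium channels let positive charge leave the cell and hold its membrane potential negative, which keeps voltage-gated calcium channels closed, whereas depolarization opens those channels and the calcium that enters activates the contractile machinery. Most of these channels are complexes in which pore subunits carry the ion and auxiliary subunits set trafficking, voltage dependence and current size. The inward rectifier encoded by Kcnj8, with its regulatory subunit encoded by Abcc9, forms the ATP-sensitive channel widely used as a pericyte marker.

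Among the 39 tested channel genes, 6 (15.4%) passed both thresholds, which ask for a log2 fold change of more than 0.5 in either direction together with an adjusted p-value under 0.01 (limma, Benjamini-Hochberg over all tested genes). Over all tested genes 6.79% passed, 4.11% as higher and 2.68% as lower in iPCKO pericytes. Kcne4, Cacna2d1 and Kcnk3 rose, and Kcna6, Kcne1l and Cacnb2 fell. Kcna6 met the filter of 1 RPKM in 3 samples only through the controls, so it could be called only as lower. None of the calcium channel pores and, besides Kcna6 and Kcnk3, none of the potassium channel pores passed, so 4 of the 6 genes encode auxiliary subunits. Among the 39 tested genes, the auxiliary ones were 7 for potassium channels and 2 alpha2delta, 3 beta and 1 gamma subunit genes for calcium channels. Whether auxiliary and pore genes differ was not tested. The remaining 33 tested channel genes did not pass. An unadjusted p-value below 0.05 (limma) was found for 18 of the 39. The share of all tested genes below that value was not counted, so this number is no result about channel genes. Counts of unadjusted p-values given below for families and marker lists have the same limit. Samples of both groups were fully separated in 18 of the 39 (46.2%), with iPCKO samples above in 9 and below in 9, compared with 35.5% of all tested genes.

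The direction was mixed over the group. A fold change is given here as the mean of log2(RPKM + 0.1) in iPCKO samples minus that in controls, a scale on which changes of low genes come out too small. It was positive for 17 and negative for 22 of the tested channel genes, with a median of -0.08 against 0.00 over all tested genes. The median absolute log2 fold change was 0.29 for channel genes and 0.17 for all tested genes, and the median standard error was 0.17 and 0.12. Most channel genes are low, with 29 of the 39 at a control mean of 1 to 5 RPKM and 7 above 10 RPKM.

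**Figure D1:**
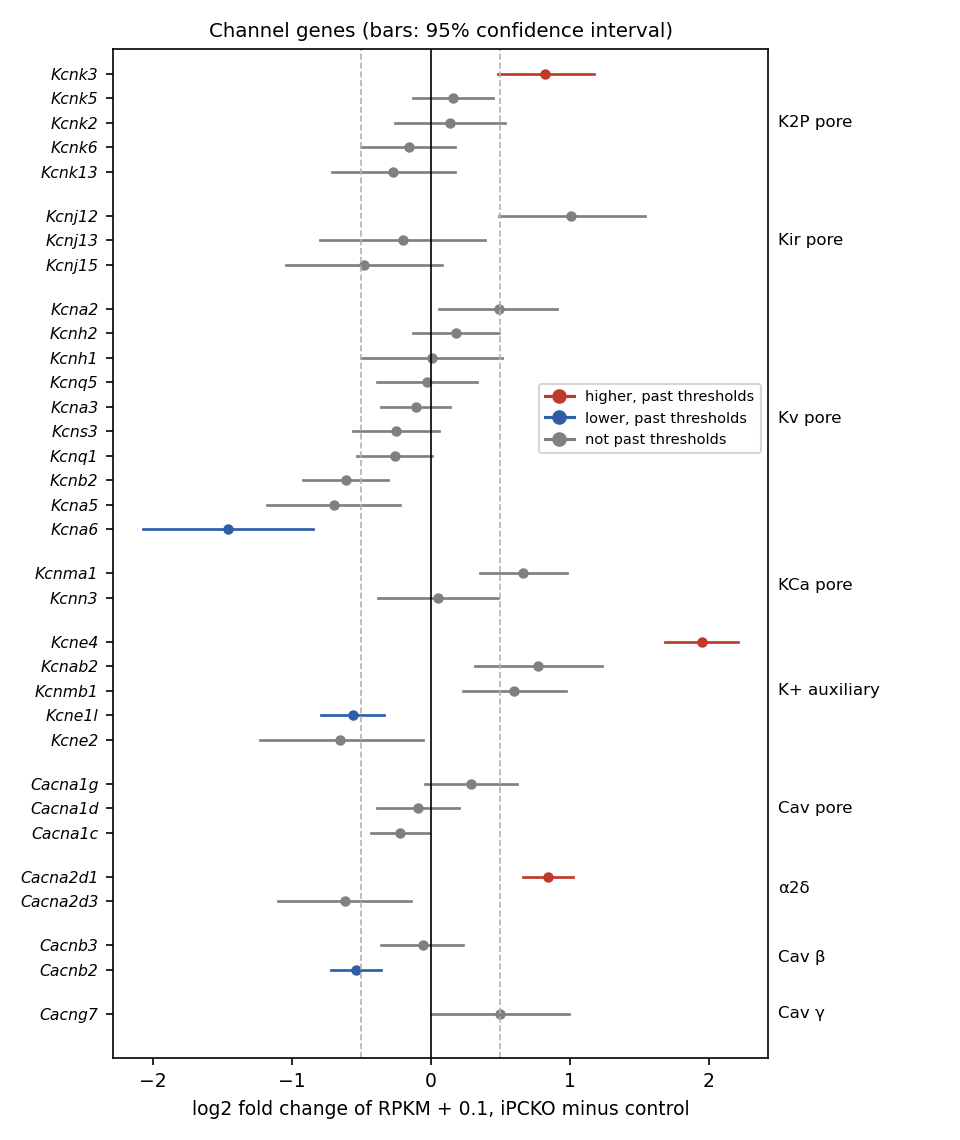
Log2 fold change of RPKM + 0.1 (x axis, iPCKO minus control) for 33 of the 39 tested channel genes, grouped by subunit class. Points are limma estimates, bars their 95% confidence intervals and dashed lines the fold change threshold of 0.5. Kcne4 lies farthest to the right at 1.95 and Kcna6 farthest to the left at -1.46, while most grey intervals cross 0.

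The upstream sequences of 4 of the genes that passed are shown because YAP1 and TAZ act on promoters and enhancers through TEAD proteins, which bind the element GGAATG or, read on the other strand, CATTCC. The RefSeq promoter table (GRCm38.p6) was searched for both forms over the 250 bases before each start. The element was found in 12.6% of all 32851 windows, in 20 of 122 windows of channel genes (16.4%, 88 genes matched) and in 7 of 47 windows of the tested ones (14.9%, 31 genes). Among the channel genes past the thresholds, 1 of 6 windows (5 genes) held it, that of Kcne1l, 190 bases before the RefSeq start and 94 bases before the first exon of GENCODE M21, which begins farther upstream. A match describes letters in this window and is not a binding site, and enhancers lie outside it. Kcnk3 is not in that table, and Cacnb2, with 2 windows of which neither held the element, is not printed. The bases below run 5′ to 3′ on the gene's strand, stop before the first annotated exon and carry the TEAD element in capitals. They come from chr1:78816661-78816757 (plus strand) for Kcne4, chr5:15934441-15934690 (plus strand) for Cacna2d1, chr6:126740675-126740924 (minus strand) for Kcna6 and chrX:142306295-142306448 (minus strand) for Kcne1l.
Kcne4: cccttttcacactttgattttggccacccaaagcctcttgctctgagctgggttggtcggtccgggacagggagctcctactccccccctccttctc
Cacna2d1: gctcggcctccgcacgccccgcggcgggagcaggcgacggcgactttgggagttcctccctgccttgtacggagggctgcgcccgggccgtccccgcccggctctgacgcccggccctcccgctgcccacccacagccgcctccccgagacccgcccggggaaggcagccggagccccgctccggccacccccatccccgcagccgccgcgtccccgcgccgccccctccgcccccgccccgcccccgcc
Kcna6: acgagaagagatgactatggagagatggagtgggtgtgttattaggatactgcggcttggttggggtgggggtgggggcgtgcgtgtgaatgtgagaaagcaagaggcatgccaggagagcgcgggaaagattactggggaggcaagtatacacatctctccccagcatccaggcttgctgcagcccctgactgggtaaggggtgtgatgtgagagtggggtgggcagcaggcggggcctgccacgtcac
Kcne1l: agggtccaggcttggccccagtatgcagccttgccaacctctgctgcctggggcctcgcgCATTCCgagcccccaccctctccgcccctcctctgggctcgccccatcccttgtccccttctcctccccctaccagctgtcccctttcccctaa
Of these 4 sequences, that of Kcne1l alone has capitals.

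Among potassium channel pores, the tandem pore domain (K2P) gene Kcnk3 had the highest level of all channel genes in both groups. Kcnk3 (ENSMUSG00000049265, chromosome 5, 30588170 to 30625271, GRCm38) encodes TASK-1, an acid-sensitive background channel. Kcnk3 shares 229 exonic bases with Gm9899 on the other strand, so some of its reads are uncertain. It stood at 85.7, 59 and 64.2 RPKM in controls 1 to 3 and at 136, 120 and 110 RPKM in iPCKO samples 1 to 3. The lowest iPCKO sample lay above the highest control, and the ratio of the means was 1.75. Its log2 fold change was 0.82 (standard error 0.15, 95% confidence interval 0.48 to 1.17, adjusted p = 0.008, limma). The call sat close to the threshold. With 1 sample left out, it was kept only without control 1 (adjusted p = 0.0034), whose Kcnk3 was the highest of the controls, and the adjusted p-value was between 0.016 and 0.039 without any of the other 5.

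The other tested K2P genes did not pass. Kcnk5, which encodes an alkaline-activated background channel, had 4.36, 4.88 and 5.32 RPKM in controls and 6.3, 4.96 and 5.03 RPKM in iPCKO samples. These ranges overlapped (log2 fold change 0.16, 95% confidence interval -0.13 to 0.45). Kcnk2, Kcnk6 and Kcnk13 had control means of 1.69, 2.42 and 2.69 RPKM and log2 fold changes of 0.14, -0.16 and -0.27.

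Kcnk3 made up a larger share of the pore transcripts in every iPCKO sample. Over the 76 potassium channel pore genes, it made up 46, 38.5 and 38.8% of the summed RPKM in controls and 56.4, 56.4 and 55.6% in iPCKO samples. The summed RPKM itself was 186, 153 and 165 in controls and 242, 213 and 197 in iPCKO samples. Both sets of values were separated between groups. Kcnk3 enters both, so they restate its own rise and are no further result on the other pore genes. In contrast, the summed RPKM of the 40 voltage-gated (Kv) pores overlapped, at 80.4, 71.9 and 77.7 in controls and 83.3, 69.4 and 64.3 in iPCKO samples.

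**Figure D2:**
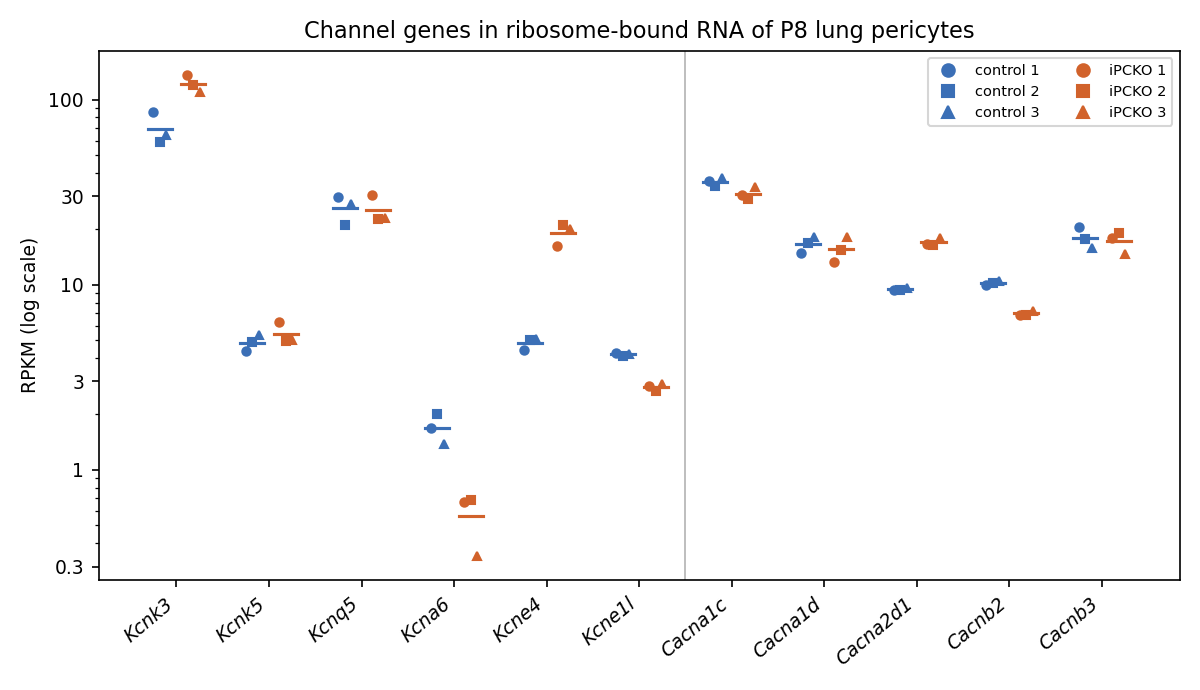
RPKM in each sample (y axis, log scale) for the channel genes past the thresholds and 5 others with a high mean in controls, potassium channel genes to the left of the grey line and calcium channel genes to the right. Circles, squares and triangles are samples 1, 2 and 3 of a group and horizontal bars are group means. Kcne4 moved from 4.85 to 19.1 RPKM, while Kcnq5, Cacna1d and Cacnb3 overlapped between groups.

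Of 40 Kv pore genes, 13 were tested, and 0 rose while 1 fell, with 5 at an unadjusted p-value below 0.05. Kcna6 (ENSMUSG00000038077, chromosome 6, 126708329 to 126740674) encodes a delayed rectifier of the Shaker family. It had 1.68, 2 and 1.37 RPKM in controls against 0.669, 0.685 and 0.343 RPKM in iPCKO samples. It thus met the filter of 1 RPKM in 3 samples only through the controls, and its direction is no separate support. All iPCKO samples lay below all controls, at 0.335 times the control mean. On the log2 scale it changed by -1.46 (standard error 0.27, 95% confidence interval -2.07 to -0.85, adjusted p = 0.008, limma). At this low level the call depended on the samples. With 1 sample left out, it was kept only without iPCKO 1 (adjusted p = 0.0083), and the adjusted p-value was between 0.014 and 0.033 without any of the other 5. Kcna6 also shares 2355 exonic bases with the antisense gene Gm26673, and whether counting used strand is not given in the sources used here, so its reads are uncertain.

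Kcna6 lies in a cluster with Kcna1 and Kcna5 on chromosome 6, with gaps of 61.9 kb between Kcna6 and Kcna1 and 105 kb between Kcna1 and Kcna5. Kcna5 encodes the ultrarapid delayed rectifier, a channel of pulmonary artery smooth muscle that closes in hypoxia. It had 4.06, 4.11 and 4.13 RPKM in controls and 1.82, 3.57 and 2.35 RPKM in iPCKO samples. Controls were tightly grouped and iPCKO samples were spread below them, and the log2 fold change of -0.70 did not pass (adjusted p = 0.059, limma). Without iPCKO 2, the highest of the mutant samples, Kcna5 passed as lower. The neighbour between them, Kcna1, was below the test's limit.

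Kcnq5, which encodes an M-type pore that opens near the resting potential of vascular smooth muscle, was the highest Kv gene and did not separate the groups. Kcnq5 had 29.7, 21 and 27.2 RPKM in controls and 30.5, 22.7 and 23 RPKM in iPCKO samples. The difference was -0.03 on the log2 scale, with a 95% confidence interval of -0.39 to 0.33. Kcnq1, the pore that KCNE subunits are best known to bind, had control and iPCKO means of 3.88 and 3.23 RPKM (log2 fold change -0.26, adjusted p = 0.19, limma). Among the further delayed rectifiers, Kcnb2 had 4.81, 4.49 and 4.13 RPKM in controls and 2.81, 3.41 and 2.52 RPKM in iPCKO samples, fully separated, yet its adjusted p-value of 0.017 (log2 fold change -0.61, limma) missed the threshold. The other tested Kv genes (among them Kcna2, Kcna3, Kcnh1, Kcnh2 and the silent subunit Kcns3) did not pass, and these 5 had log2 fold changes between -0.25 and 0.49.

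Kcne4 showed the largest rise of the tested channel genes. Kcne4 (ENSMUSG00000047330, chromosome 1, 78816758 to 78820028) encodes a single-span membrane protein that binds KCNQ and other Kv pores and, in heterologous cells, reduces the KCNQ1 current. It stood at 4.45, 5.03 and 5.07 RPKM in controls and 16.2, 21 and 20 RPKM in iPCKO samples. Means were 4.85 ± 0.346 and 19.1 ± 2.51 RPKM (SD, n = 3), a ratio of 3.93, and the lowest iPCKO value was well above the highest control. The log2 fold change was 1.95 (standard error 0.12, 95% confidence interval 1.68 to 2.21, adjusted p = 3.4e-05, limma). It passed in all 15 alternatives run on it, with values between 1.77 and 2.06. By mean RPKM it ranked as number 10 among channel genes in controls and number 4 in iPCKO pericytes.

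The ratio of Kcne4 to the Kcnq1 and Kcnq5 pore transcripts restates the rise of Kcne4, since neither pore gene passed the thresholds. Kcne4 RPKM per summed RPKM of Kcnq1 and Kcnq5 was 0.133, 0.205 and 0.161 in controls and 0.48, 0.817 and 0.757 in iPCKO samples. The iPCKO ratios were all above the controls, with sample 1 the lowest of them.

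Kcne1l, also named Kcne5, encodes another KCNE subunit, which in heterologous cells reduces the KCNQ1 current. Kcne1l (ENSMUSG00000090122, chromosome X, 142304752 to 142306294) had 4.27, 4.13 and 4.2 RPKM in controls and 2.85, 2.68 and 2.91 RPKM in iPCKO samples. Samples within a group were close to each other and the groups were apart, at 0.669 times the control mean. On the log2 scale this was a change of -0.56 (standard error 0.10, 95% confidence interval -0.79 to -0.34, adjusted p = 0.0066, limma). This call was lost when any of the 6 samples was left out (adjusted p between 0.012 and 0.036), with fold changes of -0.59 to -0.53. The third tested member of the family, Kcne2, overlapped between groups, with means of 1.91 and 1.20 RPKM and a log2 fold change of -0.65 (adjusted p = 0.13, limma). Of the 17 potassium channel auxiliary genes, 7 were tested, 1 rose and 1 fell. Kcnab2, whose product is a cytoplasmic subunit of Shaker channels, had means of 1.11 and 1.99 RPKM (log2 fold change 0.77, adjusted p = 0.033, limma) and did not pass.

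The large-conductance calcium-activated (BK) channel, which opens on calcium entry and limits contraction, consists of the pore encoded by Kcnma1 and, in smooth muscle, the calcium-sensitizing subunit encoded by Kcnmb1. Neither passed the thresholds. Kcnma1 had 1.48, 1.42 and 1.29 RPKM in controls and 2.46, 2.08 and 2.27 RPKM in iPCKO samples. Groups were separated, and the log2 fold change was 0.66 (95% confidence interval 0.35 to 0.98, adjusted p = 0.014, limma). Kcnmb1 had 3.73, 2.34 and 2.9 RPKM in controls and 4.67, 4.6 and 4.27 RPKM in iPCKO samples (log2 fold change 0.60, adjusted p = 0.039, limma). Here too every iPCKO sample lay above every control, and Kcnmb1 sits within the annotated span of Kcnip1. The ratio of Kcnmb1 to Kcnma1 RPKM overlapped, at 2.14 ± 0.449 in controls and 2 ± 0.187 in iPCKO samples (SD, n = 3).

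A further BK subunit gene, Kcnmb2, whose product can inactivate the channel, was below the test's limit, with 0.0973, 0.385 and 0.0829 RPKM in controls and 2.45, 1.6 and 0.65 RPKM in iPCKO samples. All iPCKO samples were above the controls and differed widely among themselves. With no filter on low values its log2 fold change was 2.51 (adjusted p = 0.021, limma), which did not pass. Of the 8 calcium- or sodium-activated pore genes, 2 were tested and 0 passed, with 1 at an unadjusted p-value below 0.05. The small-conductance channel gene Kcnn3 had means of 1.10 and 1.15 RPKM. Its relative Kcnn2 was not tested, with 1.2, 0.979 and 0.941 RPKM in controls and 0.381, 0.396 and 0.469 RPKM in iPCKO samples. With no filter Kcnn2 passed as lower (log2 fold change -1.14, adjusted p = 0.0079, limma).

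Among the 14 inward rectifier genes other than Kcnj8, 3 were tested and 0 passed, with 1 at an unadjusted p-value below 0.05. That gene was Kcnj12, a strong inward rectifier, with 0.738, 0.542 and 0.943 RPKM in controls and 1.67, 1.81 and 1.28 RPKM in iPCKO samples. The samples were separated (log2 fold change 1.01, adjusted p = 0.02, limma) at levels close to the limit of 1 RPKM. Kcnj12 reached that limit only in iPCKO samples, so it could be called only as higher and its direction is no separate support. Kcnj13 and Kcnj15 overlapped, with log2 fold changes of -0.20 and -0.48.

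Kcnj8 is outside the member list and is given for comparison. It had 26.3, 17.2 and 16.4 RPKM in controls and 48.1, 39.5 and 33.9 RPKM in iPCKO samples (log2 fold change 1.03, adjusted p = 0.0084, limma). Its partner Abcc9 had 13.8, 11.3 and 11.8 RPKM in controls and 29.3, 25.8 and 26.8 RPKM in iPCKO samples (log2 fold change 1.15, adjusted p = 2.5e-04, limma). Both rose, and their ratio stayed within the same range, 0.632 ± 0.0986 Abcc9 per Kcnj8 in controls and 0.685 ± 0.0942 in iPCKO samples (SD, n = 3). The Kcnj8 call was kept in 1 of the 6 fits without a sample (adjusted p of up to 0.036 in the others) and the Abcc9 call in 6 of 6.

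Calcium channel pores did not pass the thresholds. Of 10 Cacna1 genes, 3 were tested, with 1 at an unadjusted p-value below 0.05. Cacna1c, the L-type pore of smooth muscle and the second highest channel gene, had 36.4, 34.1 and 37.7 RPKM in controls and 30.5, 28.9 and 33.8 RPKM in iPCKO samples. The highest iPCKO sample lay just below the lowest control. The log2 fold change was -0.22 (95% confidence interval -0.43 to -0.01, adjusted p = 0.15, limma).

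Cacna1d, an L-type pore that opens at more negative potentials, had 14.9, 16.8 and 18 RPKM in controls and 13.2, 15.4 and 18.1 RPKM in iPCKO samples. These ranges overlapped almost entirely (log2 fold change -0.09, 95% confidence interval -0.39 to 0.20). The T-type pore gene Cacna1g had 4.09, 3.78 and 2.98 RPKM in controls and 4.14, 5.01 and 4.12 RPKM in iPCKO samples, narrowly separated (log2 fold change 0.29, adjusted p = 0.22, limma). Cacna1c and Cacna1d together made up 90.4, 90.3 and 92.3% of the summed RPKM of all Cacna1 genes in controls and 87.8, 86.3 and 89.4% in iPCKO samples. The T-type gene Cacna1h was not tested, at 0.177, 0.329 and 0.292 RPKM in controls and 0.643, 0.786 and 0.683 RPKM in iPCKO samples. Its iPCKO values were all higher and all below 1 RPKM (log2 fold change 1.16 and adjusted p = 0.015 with no filter, limma).

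Cacna2d1 encodes the alpha2delta subunit that brings L-type and other calcium channels to the cell surface and binds gabapentin. Cacna2d1 (ENSMUSG00000040118, chromosome 5, 15934691 to 16374511) had 9.31, 9.36 and 9.58 RPKM in controls and 16.5, 16.4 and 17.8 RPKM in iPCKO samples. Both groups were tight and far apart, at 9.41 ± 0.145 and 16.9 ± 0.757 RPKM (SD, n = 3), a ratio of 1.80. The log2 fold change was 0.84 (standard error 0.08, 95% confidence interval 0.66 to 1.02, adjusted p = 3.3e-04, limma), and it passed without any of the 6 samples. Its relative Cacna2d3 had 1.53, 1.66 and 1.49 RPKM in controls and 1.28, 1 and 0.722 RPKM in iPCKO samples, all of them lower, with a log2 fold change of -0.62 that did not pass (adjusted p = 0.086, limma). Cacna2d1 per Cacna1c RPKM was 0.255, 0.275 and 0.254 in controls and 0.541, 0.568 and 0.526 in iPCKO samples. This ratio mostly restates the rise of Cacna2d1, since Cacna1c did not pass.

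Cacnb2 encodes a cytoplasmic beta subunit that binds the pore and raises its surface level and opening. Cacnb2 (ENSMUSG00000057914, chromosome 2, 14603088 to 14987908) had 10, 10.2 and 10.5 RPKM in controls and 6.85, 6.88 and 7.23 RPKM in iPCKO samples. The groups were clearly apart, at 0.684 times the control mean. On the log2 scale the change was -0.54 (standard error 0.08, 95% confidence interval -0.72 to -0.36, adjusted p = 0.003, limma). The call was kept without control 1, iPCKO 1 or iPCKO 3 and lost without control 2, control 3 or iPCKO 2 (adjusted p = 0.015, 0.02 and 0.019). With a pseudocount of 1 its log2 fold change was -0.49, which does not reach the threshold of 0.5. Cacnb2 overlaps exons of Gm10848, Gm10849 and Gm13269, so some of its reads are uncertain. Tested channel genes that did not pass also share exonic bases with other genes, among them Kcnma1 (1016 bases) and Cacna1d (589 bases).

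Cacnb3, the highest beta subunit gene, had 20.5, 17.6 and 15.7 RPKM in controls and 17.8, 18.9 and 14.7 RPKM in iPCKO samples. Its ranges overlapped (log2 fold change -0.06, 95% confidence interval -0.36 to 0.23). Cacnb2 made up 30.3, 34.4 and 37.6% of the summed RPKM of the 4 Cacnb genes in controls and 26.1, 24.7 and 30.6% in iPCKO samples, which overlapped. The summed RPKM of these genes was 33, 29.5 and 27.8 in controls and 26.3, 27.8 and 23.7 in iPCKO samples. The tested gamma subunit gene, Cacng7, had means of 2.09 and 2.88 RPKM (log2 fold change 0.50, adjusted p = 0.17, limma).

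**Figure D3:**
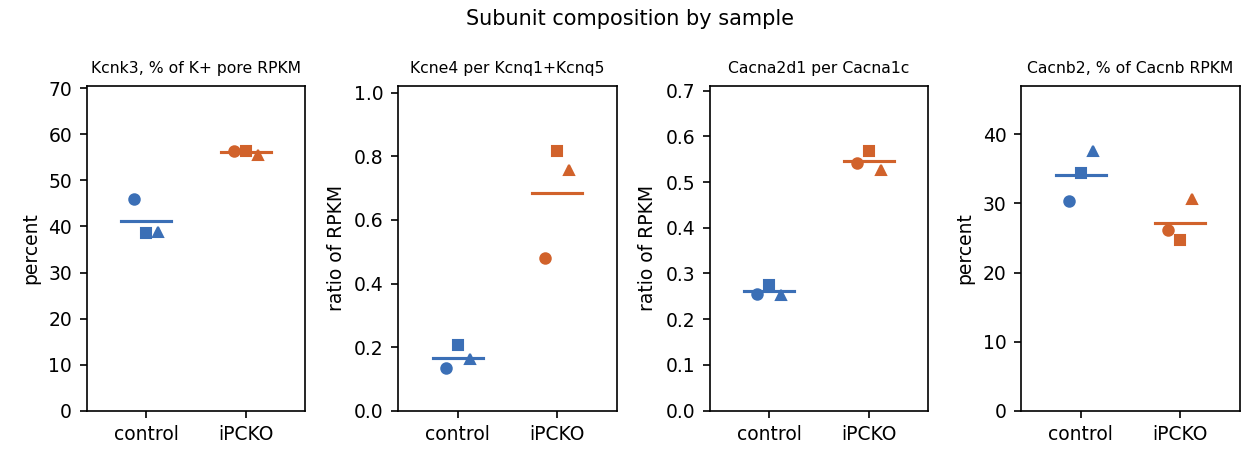
Subunit composition in each sample. From left to right, the y axes give the percent of potassium channel pore RPKM in Kcnk3, Kcne4 RPKM per summed Kcnq1 and Kcnq5 RPKM, Cacna2d1 RPKM per Cacna1c RPKM, and the percent of Cacnb RPKM in Cacnb2. Circles, squares and triangles are samples 1, 2 and 3 and lines are group means. The groups are apart in the first 3 panels and overlap in the last, where control 1 (30.3%) lies below iPCKO 3 (30.6%).

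The other 80 channel genes were not tested. Of the 119 members, 56 stayed under 0.2 RPKM in every sample, and 5 of these (Kcna10, Kcnv1, Cacng6, Kcnj6 and Kcnk18) were at 0 in all 6. Only 4 untested genes reached 1 RPKM in a sample. Besides Kcnmb2 and Kcnn2, these were Kcnrg, with 0.83, 0.938 and 0.741 RPKM in controls and 0.717, 1.03 and 1.39 RPKM in iPCKO samples, and the inward rectifier gene Kcnj2, with 0.466, 1.13 and 0.868 RPKM and 0.564, 0.741 and 0.928 RPKM. Both overlapped between groups. A few others had a group mean of at least 0.5 RPKM. The K2P gene Kcnk1 (0.706 and 0.915 RPKM) and the intermediate-conductance gene Kcnn4 (0.446 and 0.568 RPKM) overlapped between groups. The A-type Kv gene Kcnd1 (0.606 and 0.418 RPKM) and the P/Q-type pore Cacna1a (0.702 and 0.551 RPKM) were lower in every iPCKO sample, and the R-type pore Cacna1e (0.394 and 0.601 RPKM) and the gamma subunit Cacng4 (0.280 and 0.522 RPKM) were higher in every iPCKO sample. With no filter, none of these 6 passed, and of the 4 that separated the groups the adjusted p-value was between 0.089 and 0.31 (limma).

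Genes that work with these channels were taken from a list of 70, comprising regulators and adaptors of the channels, depolarizing channels, and calcium stores, pumps and readers. Of the 49 that were tested, 10 rose and 2 fell, where 4.11% of all tested genes were higher and 2.68% lower. The median log2 fold change was 0.18, against 0.00 over all tested genes. The list was chosen with earlier results of these data known. Its counts and median can reflect that choice and are not a test of the list. The calcium-activated chloride channel gene Ano1, whose current depolarizes mural cells, had 16.4, 14.4 and 17.9 RPKM in controls and 46.7, 48.1 and 45.7 RPKM in iPCKO samples. The groups were far apart, with an iPCKO mean 2.88 times the control mean (log2 fold change 1.53, adjusted p = 5.0e-05, limma). Gem, a small GTPase that binds beta subunits and inhibits calcium channels, had 13.3, 16.7 and 16.6 RPKM in controls and 31.5, 31 and 27.1 RPKM in iPCKO samples (log2 fold change 0.94, adjusted p = 0.0011, limma). Stac, an adaptor of L-type channels, had means of 1.56 and 4.86 RPKM (log2 fold change 1.58, adjusted p = 0.0019, limma).

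The mechanosensitive cation channel genes Piezo1 and Piezo2 rose by log2 fold changes of 0.64 and 0.73 (adjusted p = 0.0028 and 5.3e-04, limma). For calcium release and transport, the ryanodine receptor gene Ryr3 (1.32), the endoplasmic reticulum pump gene Atp2a3 (1.02) and the sodium-calcium exchanger genes Slc8a1 (0.62) and Slc8a2 (0.83) rose on the log2 scale, with adjusted p-values between 0.0031 and 0.0098 (limma). Ryr3 met the filter of 1 RPKM in 3 samples only through the iPCKO samples, so it could be called only as higher. The plasma membrane calcium pump gene Atp2b4 fell, from 38.3, 33.9 and 37.8 RPKM in controls to 24.2, 13.8 and 12.7 RPKM in iPCKO samples (log2 fold change -1.17, adjusted p = 0.008, limma). Rcan2, an inhibitor of the calcium-activated phosphatase calcineurin, fell from 7.66, 7.26 and 6.94 RPKM to 3.43, 4.46 and 3.54 RPKM (log2 fold change -0.93, adjusted p = 0.0015, limma). Of the highest genes of the list, Calm2 and Calm3, Trpc6 and Mylk did not pass. The calmodulin genes Calm2 and Calm3 had control means of 351 and 251 RPKM and log2 fold changes of -0.37 and 0.03, the cation channel gene Trpc6 had 124 RPKM and -0.13, and Mylk, the myosin light chain kinase gene, had 116 RPKM and -0.11. Ano1, Gem, Stac, Piezo2, Rcan2 and Abcc9 passed in all 6 fits that left out a sample. The others lost the call in at least 3 of the 6, with adjusted p-values of up to 0.045, among them Slc8a1 and Atp2b4, which kept it in 1. With Y-linked transcripts as a covariate, Ano1, Stac and Abcc9 passed.

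**Figure D4:**
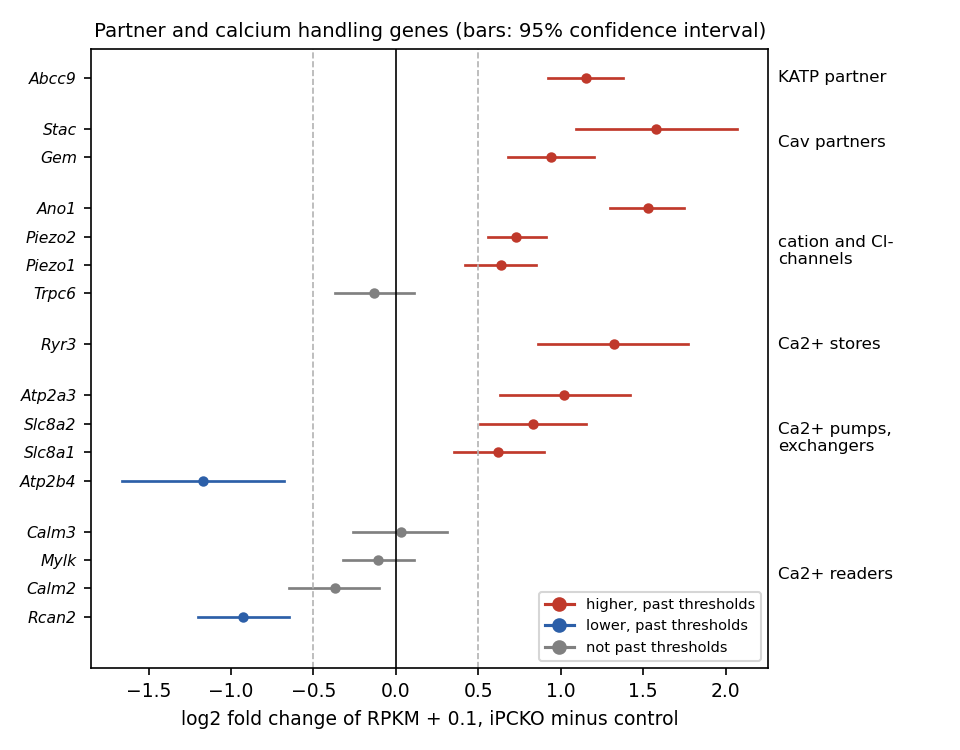
Log2 fold change of RPKM + 0.1 (x axis, iPCKO minus control) for 16 of the 49 tested partner and calcium handling genes, those past the thresholds and 4 of the highest in controls, grouped by role. Points are limma estimates, bars their 95% confidence intervals and dashed lines the fold change threshold of 0.5. Stac and Ano1 lie at 1.58 and 1.53, and Atp2b4 and Rcan2 are the 2 genes past the threshold on the lower side.

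The libraries implied 14.2 to 39.6 M reads, with ranges that overlapped between groups. Of the deleted genes, Yap1 fell from 12.4 ± 0.859 to 5.61 ± 0.314 RPKM (SD, n = 3; log2 fold change -1.12, adjusted p = 1.7e-04, limma), whereas Wwtr1 had 60.4 ± 9.48 and 62 ± 1.63 RPKM (log2 fold change 0.05). A gene-level value also counts exons outside the recombined part, so it does not measure recombination. The 10 pericyte markers summed to 4142 to 5043 RPKM in controls and 3673 to 4541 RPKM in iPCKO samples, and 5 of the 10 passed. Besides Kcnj8 and Abcc9, Cspg4 rose (log2 fold change 1.06), and Notch3 (-0.94) and Rgs5 (-1.15) fell (adjusted p = 3.3e-04, 0.0011 and 0.0078, limma). Markers of other cells moved with the groups. The 10 neutrophil markers summed to 83.4, 122 and 87.2 RPKM in controls and 440, 1949 and 4792 RPKM in iPCKO samples (6 of 10 higher), 10 leukocyte markers to 62.2 to 90.6 and 155 to 265 RPKM (7 of 10 higher), and 8 platelet markers to 8.35 to 10.1 and 23.8 to 66.5 RPKM (5 of 6 tested higher). The 8 epithelial markers (551 to 638 and 814 to 869 RPKM, 1 of 7 tested higher), the 4 mesothelial markers (3.94 to 5.58 and 7.35 to 9.76 RPKM, 1 of 2 tested higher) and the 8 cardiomyocyte markers (38.9 to 50.8 and 67 to 72.4 RPKM, 0 of 5 tested past the thresholds, 5 at an unadjusted p-value below 0.05, Nppa under 0.2 RPKM) were also separated.

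Smooth muscle (1375 to 1546 and 1508 to 1626 RPKM, 2 of 8 higher and 1 lower), fibroblast (711 to 903 and 734 to 1094 RPKM, 0 of 8 past the thresholds, 5 at an unadjusted p-value below 0.05), endothelial (140 to 151 and 149 to 162 RPKM, 2 of 8 higher), erythrocyte (2222 to 2783 and 1370 to 6027 RPKM, 0 of 7 with an unadjusted p-value below 0.05) and nerve, glia and neuroendocrine markers (4.8 to 6.88 and 4.65 to 5.39 RPKM, 0 of 2 tested past the thresholds, 1 at an unadjusted p-value below 0.05) overlapped in their sums. Of the last list, Sox10, Snap25, Chga and Calca stayed under 0.2 RPKM in every sample. The part of these cells in the changes of channel genes was not tested. Without iPCKO 3, which had the highest neutrophil sum, the log2 fold changes were 1.91 for Kcne4, 0.80 for Cacna2d1 and 0.90 for Kcnk3. In that fit Kcne4, Cacna2d1 and Cacnb2 passed, while Kcnk3, Kcna6 and Kcne1l did not. The iPCKO samples left in it still had neutrophil sums above all controls (440 and 1949 RPKM), so it cannot separate these cells from the genotype.

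Y-linked transcripts also split the samples, since Ddx3y stood at 17.2 and 19.7 RPKM in controls 1 and 3 and at 0 in control 2 and in all 3 iPCKO samples. The labels give no sex. As control 2 alone of the controls had Ddx3y at 0, a fit with Y-linked transcripts as a covariate rests mainly on control 2 against the iPCKO samples. A call lost in that fit therefore cannot be assigned to the Y-linked transcripts. With Y-linked transcripts as a covariate, which was added after seeing the data, Kcne4 alone of the channel genes passed (log2 fold change 1.90, adjusted p = 0.0022, limma). Cacna2d1 (0.85, adjusted p = 0.015), Kcnk3 (1.04, adjusted p = 0.035), Kcna6 (-1.71, adjusted p = 0.057), Cacnb2 (-0.53, adjusted p = 0.077) and Kcne1l (-0.54, adjusted p = 0.13, all limma) did not.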

How the data were processed

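Ribosome-associated RNA was sequenced from 3 control and 3 iPCKO lungs, with groups taken from the sample labels. As the study's methods state, libraries were stranded and made from total RNA, and the authors mapped the read pairs to mm10 (GRCm38) with TopHat, then counted them over genes with HTSeq 0.6.1. They tested counts with DESeq2. The deposited values are RPKM per Ensembl gene as the authors computed them, which of a gene's exons entered the length being not given in the sources used here. Division by depth and length hides the reads behind a value. Low values imply 14.2 to 39.6 M reads per sample, 1 read on 1 kb being worth 0.0253 to 0.0702 RPKM (75.3 to 77.1% of single-transcript genes of at most 10 reads came within 0.02 of a whole read). These depths were not used to make counts.

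Symbols and 1-based coordinates came from GENCODE M21, with 21375 of 21603 genes matched. Genes that reached 1 RPKM in 3 or more samples were tested as log2(RPKM + 0.1) with limma 3.58.1 (R 4.3.3, lmFit, eBayes with an intensity trend, two-sided), and p-values were adjusted by Benjamini-Hochberg over all 12034. The thresholds are those of the study. The scripts were tested on simulated data. Tables and figures used Python 3.11.15, numpy 2.4.6, pandas 2.3.3 and matplotlib 3.10.9. No pair of samples shared nonzero values, and the design text describes separate mice.

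The members and lists were chosen with earlier results of these data known. Named genes are the members past both thresholds, the 10 highest in controls, others where highest of their family or part of the same complex, untested members at 1 RPKM in a sample or a group mean of 0.5 RPKM, and, outside the members, Kcnj8, Abcc9, Yap1, Wwtr1 and the partner genes past the thresholds or among the 5 highest. Kcnab2, Kcnb2, Kcne2, Kcnk2, Kcnk6, Kcnk13, Kcnn3, Kcnj13 and the remaining Kv genes were named after their values were seen. Alternatives were the replicate block, other filters, pseudocounts, scalings, thresholds and sample weights, each sample left out and, added after seeing the data, Y-linked transcripts as a covariate. Some genes under this rule are not reported here. Input RNA and other ages were not analysed here.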

Additional observations from a re-analysis of the deposited data

How the results depend on the processing

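The 3 higher and 3 lower channel genes remained 3 and 3 with a pseudocount of 0.01, median-ratio scaling and quantile normalization. With the replicate block, 3 channel genes were higher and 2 lower (Kcne1l lost, adjusted p = 0.014, limma), and 922 of all genes passed against 817. Deviations of samples with the same number correlated with r of 0.238, 0.092 and 0.022 and those with different numbers between -0.298 and 0.273, so the numbers were not taken as pairs. Without a filter on low values 2 were higher and 2 lower, with Kcnk3, Kcna6 and Kcne1l lost (adjusted p = 0.015, 0.014 and 0.015) and Kcnn2 gained, and at 1 RPKM in all 6 samples Kcna6 was not tested. With a pseudocount of 1, 1 channel gene was lower, Kcne1l (-0.45) and Cacnb2 (-0.49) falling short of the fold change threshold. Leaving out each sample gave 2 to 3 higher and 0 to 2 lower channel genes, 382 to 899 of all genes and 6 to 13 partner genes, with the 0 coming from the fits without control 2 or control 3, where 8 channel genes were lower at an unadjusted p-value below 0.05. Sample weights gave 9 higher and 4 lower channel genes, 1590 of all genes and 18 partner genes. With Y-linked transcripts as a covariate these numbers were 1, 0 (5 lower at an unadjusted p-value below 0.05), 119 and 3. At an adjusted p-value below 0.05 there were 7 higher and 4 lower, and 1313 of all genes, and at an absolute log2 fold change above 1 there were 1 higher, 1 lower, 411 of all genes and 6 partner genes. Among the channel genes whose levels or fold changes are given, signs turned for genes that did not pass the thresholds, with log2 fold changes of -0.27 to 0.18. With 1 sample left out, Kcnh1 ranged from -0.23 to 0.21, Kcnn3 from -0.06 to 0.18 (0.00 without control 2), Kcnj13 from -0.37 to 0.03, Kcnq5 from -0.18 (without control 2) to 0.07 (without control 1), Cacnb3 from -0.16 (without control 3) to 0.04 (without control 1) and Cacna1d from -0.21 (without iPCKO 3) to 0.02 (without iPCKO 1). With sample weights, Cacnb3 was at 0.13, Kcnk5 at 0.00, Kcnk6 at 0.03 and Kcnh1 at -0.20, and Kcnh1 was at -0.01 with median-ratio scaling and -0.02 with quantile normalization, where Kcnn3 was at -0.09. With the Y-linked covariate, Kcnq5 was at 0.26, Kcnh2 at -0.01 and Kcnk13 at 0.02. The causes were not tested. Depth limits the precision most for the 56 channel genes that stayed under 0.2 RPKM in every sample.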
